A study of Mus musculus with 50 samples.

Results

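The genes described here are 10 genes of fast-twitch skeletal muscle, Ckm, Acta1, Myh1, Myh2, Myh4, Tnnt3, Tnni2, Mylpf, Atp2a1 and Pvalb, which were taken by symbol from the 37701 genes of a table of expression in 50 mouse mammary gland (MG) tumors. Each symbol matched 1 gene, and all 10 were among the 16733 genes that entered the tests, whose mean RPKM (reads per kilobase of gene, scaled to library size) was 0.5 or more. The tumors came from female p53R270H/+WAPCre mice, which were 8 weeks old at the start. In this model the whey acidic protein promoter drives Cre in the mammary epithelium, and Cre switches on 1 mutant copy of the tumor suppressor p53, so that all 5 groups, vehicle included, carry this allele. The groups differed in what was given by subcutaneous injection on alternate days: vehicle (titled "Untreated" in the labels), insulin, glargine, X10 or IGF1. Tissue was taken at a tumor volume of 1 cm3, with 24 h between the final dose and collection. Glargine and X10 are insulin analogues, and IGF1 is insulin-like growth factor 1. Each group held 10 tumors, and tumors are named here by their titles, which give the treatment and the mouse number, with Untreated for vehicle. The tumors in the series had been chosen by the study among those with a mesenchymal-like (EMT) appearance, with a latency near the median of their group, so that they are not a random draw of all tumors. Doses are not given in the sources used here.

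Skeletal muscle contracts when calcium released from the sarcoplasmic reticulum lets myosin of the thick filament pull on actin of the thin filament. Fast fibres use their own paralogs of many of these proteins, so that myosin, troponin and calcium pump genes tell fast from slow fibres. In the thick filament, Myh4, Myh1 and Myh2 encode the fast myosin heavy chains IIb, IIx and IIa, and Mylpf a fast myosin light chain. In the thin filament, Acta1 encodes skeletal alpha-actin, and Tnnt3 and Tnni2 the fast forms of troponin T and troponin I. Atp2a1 encodes the fast calcium pump SERCA1, Pvalb the calcium buffer parvalbumin, and Ckm the muscle creatine kinase that regenerates ATP. None of these genes is a marker of mammary epithelium. In a bulk tumor sample, more muscle cells and more muscle RNA per cell cannot be told apart, and neither can muscle fibres and tumor cells that express the same genes.

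Several of the genes are neighbors in the genome (GRCm38, gene bounds from GENCODE). Myh2 (chr11:67171027-67197517), Myh1 (chr11:67200052-67224575) and Myh4 (chr11:67238029-67260446) stand in a row on the plus strand, with 2534 and 13453 bases between them. Tnni2 (chr7:142441808-142444410) and Tnnt3 (chr7:142498836-142516009) are 54425 bases apart, and chromosome 7 also carries Ckm (chr7:19404776-19422841), Atp2a1 (chr7:126445858-126463108) and Mylpf (chr7:127208890-127214298), which makes 5 of the 10 genes. Acta1 lies at chr8:123891769-123894751 and Pvalb at chr15:78191114-78206400.

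RefSeq promoter sequence (GRCm38.p6) was at hand for 8 of the 10 genes, all but Tnnt3 and Tnni2, in 9 windows, since Pvalb had 2. The 250 bases before the start were searched on both strands for the E-box CANNTG, which myogenic factors bind, its form CAGCTG, the TATA box TATAAA, the CArG box and the MEF2 site. The windows of 5 genes are shown because these genes carry the results below: Ckm, by which the tumors fell apart, Atp2a1, which followed it most closely, Acta1, the most abundant, and Myh1 and Myh4, which parted from each other. Sequences run 5′ to 3′ on the strand of the gene, and capitals mark the E-box, TATA box, CArG box and MEF2 site matches.
Ckm, chr7:19410844-19411093, plus strand: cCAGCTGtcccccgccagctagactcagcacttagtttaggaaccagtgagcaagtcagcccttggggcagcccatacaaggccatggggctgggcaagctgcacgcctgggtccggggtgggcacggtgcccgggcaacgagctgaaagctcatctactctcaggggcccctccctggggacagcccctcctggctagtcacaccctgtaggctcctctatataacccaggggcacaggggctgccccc
Atp2a1, chr7:126463074-126463323, minus strand: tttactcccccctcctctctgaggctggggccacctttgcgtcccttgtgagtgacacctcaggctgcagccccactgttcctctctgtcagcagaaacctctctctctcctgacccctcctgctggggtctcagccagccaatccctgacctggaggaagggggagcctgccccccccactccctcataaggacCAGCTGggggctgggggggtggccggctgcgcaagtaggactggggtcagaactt
Acta1, chr8:123894776-123895025, minus strand: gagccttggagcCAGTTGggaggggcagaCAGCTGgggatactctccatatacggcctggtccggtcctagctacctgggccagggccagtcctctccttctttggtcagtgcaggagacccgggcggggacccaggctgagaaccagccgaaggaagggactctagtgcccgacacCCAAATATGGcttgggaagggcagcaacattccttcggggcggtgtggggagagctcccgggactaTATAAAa
Myh1, chr11:67199852-67200101, plus strand: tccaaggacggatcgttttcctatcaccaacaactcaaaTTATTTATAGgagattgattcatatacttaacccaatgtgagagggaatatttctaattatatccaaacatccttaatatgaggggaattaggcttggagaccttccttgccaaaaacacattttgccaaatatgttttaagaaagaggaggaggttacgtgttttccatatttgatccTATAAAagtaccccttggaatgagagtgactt
Myh4, chr11:67237562-67237811, plus strand: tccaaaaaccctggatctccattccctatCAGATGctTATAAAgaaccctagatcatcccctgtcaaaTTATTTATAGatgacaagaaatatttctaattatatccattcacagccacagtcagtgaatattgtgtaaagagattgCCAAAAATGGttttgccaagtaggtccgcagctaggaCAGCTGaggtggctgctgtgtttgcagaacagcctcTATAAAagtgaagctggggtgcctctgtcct

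CAGCTG was in 5 of the 9 windows, those of Ckm, Atp2a1, Mylpf, Acta1 and Myh4, and in 13.0% of the 32851 RefSeq windows of the same length. In Atp2a1 and Mylpf it lay close to the start, beginning 55 and 51 bases before it, and in Ckm it began 249 bases before it. The wider CANNTG, of which CAGCTG is 1 form, was in 6 of the 9 windows and in 66.2% of all. A CArG box, the site of serum response factor, was in the windows of Acta1 and Myh4 and in 1.47% of all. The MEF2 site was in the windows of Myh1, Myh4 and 1 of the 2 of Pvalb, and in 2.92% of all. TATAAA was in 3 of the 9 windows (Acta1, Myh1 and Myh4) and in 12.4% of all, and in Myh1 and Myh4 1 of its matches overlaps the MEF2 site. Upstream of Myh2 the 250 bases held none of these motifs. These matches describe the letters only, and the myosin windows stem from related genes.

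The deposited RPKM values were steps of whole reads, from which library sizes of 26.6 to 51.9 M (mega) reads (median 40.9 M) were recovered, and group medians lay between 35.4 M (X10) and 44.0 M (vehicle). One Ckm read was worth 0.0136 to 0.0266 RPKM, so that values near 0.1 rest on a handful of reads. The gene lengths behind the RPKM values were often those of a short transcript: 681 bases for Atp2a1, 19.6% of its merged exons, against 93.3% for Acta1 and 99.1% for Myh4. Levels are therefore compared between genes with care, and between tumors within a gene. Of the mammary epithelium genes, Krt8, a luminal keratin, ran from 2.39 to 1616 RPKM, and the fibroblast genes Col1a1 and Vim were at or over 1341 and 1094 RPKM in every tumor.

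The muscle genes ranged from near absence to the level of an abundant transcript, and they did so inside every treatment group. Together the 10 genes took 6.07 reads per M reads in Untreated_189 and 0.877% of all reads in glargine_64, the tumor with the highest value of 8 of the 10 genes. By mean RPKM over the 50 tumors the order was Acta1 (161.2 ± 333.7, SD), Mylpf (141.4 ± 256), Atp2a1 (140.4 ± 317), Ckm (66.3 ± 139.9), Tnnt3 (40.7 ± 79.5), Tnni2 (36.6 ± 64.5), Myh4 (25.2 ± 56.8), Pvalb (16.1 ± 39.3), Myh1 (12.5 ± 27.0) and Myh2 (4.31 ± 10.4). On the length of merged exons, Acta1 (150.4 RPKM) and Mylpf (73.6 RPKM) still led and Myh2 was still last, while Atp2a1 came to 27.5 RPKM. No neighbors in the order by RPKM differed by more than the smaller of their standard deviations.

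Ckm, the creatine kinase, lay between 0.049 and 449.7 RPKM in vehicle tumors, with a median of 0.537 RPKM. In insulin tumors it lay between 0.085 and 270.2 RPKM (median 4.98), and in glargine tumors between 0.078 and 728 RPKM (median 1.16). X10 tumors had 0.141 to 362 RPKM (median 10.6) and IGF1 tumors 0.064 to 253 RPKM (median 0.442). The means were 63.9 ± 144.5 (vehicle), 44.2 ± 85.2 (insulin), 126 ± 229 (glargine), 49.2 ± 112.1 (X10) and 48.4 ± 89.5 RPKM (IGF1; SD, n = 10 each). The 5 groups thus overlapped over nearly their whole range, and each held tumors at both ends.

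The calcium pump gene Atp2a1 lay between 0.396 and 1001 RPKM in vehicle tumors (median 1.37) and between 0.294 and 586 RPKM in insulin tumors (median 12.0). Its range was 0.206 to 1771 RPKM in glargine tumors (median 1.31), 0.338 to 611 RPKM in X10 tumors (median 15.7) and 0.308 to 376 RPKM in IGF1 tumors (median 0.917). Its medians were highest in the X10 and insulin groups, as were those of Ckm. Pvalb, the calcium buffer, reached 218 RPKM in Untreated_186, 129 RPKM in glargine_64 and 96.8 RPKM in Untreated_197, and was listed at 0 in 3 tumors.

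Among thin filament genes, Acta1 ran from 0.789 to 507 RPKM in vehicle tumors (median 3.80), from 1.37 to 640.4 RPKM in insulin tumors (median 14.0) and from 0.649 to 1940.1 RPKM in glargine tumors (median 16.2). X10 tumors had 0.475 to 834 RPKM (median 29.2) and IGF1 tumors 0.830 to 620.5 RPKM (median 5.44). Actin was never absent, since its lowest tumor still had 0.475 RPKM. The troponin genes behaved alike at the top, with 376 RPKM of Tnnt3 and 339 RPKM of Tnni2 in glargine_64, and at the bottom Tnnt3 went down to 0.357 RPKM and Tnni2 to 1.04 RPKM.

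Of the thick filament genes, Mylpf reached 1009 RPKM in glargine_64 and 959 RPKM in Untreated_186, and its group medians ran from 6.89 RPKM (vehicle) to 31.3 RPKM (X10). Myh4, the heavy chain of IIb fibres, was highest in Untreated_186 (254.5 RPKM), glargine_64 (198 RPKM) and insulin_9 (146.6 RPKM), with group medians of 0.0565 to 2.52 RPKM. Myh1 peaked at 153 RPKM and Myh2 at 58.1 RPKM, both in glargine_64. The 3 heavy chains have near-identical stretches, and reads that fit more than 1 of them may have been left out by the counting, so that their levels are uncertain.

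**Figure D1:**
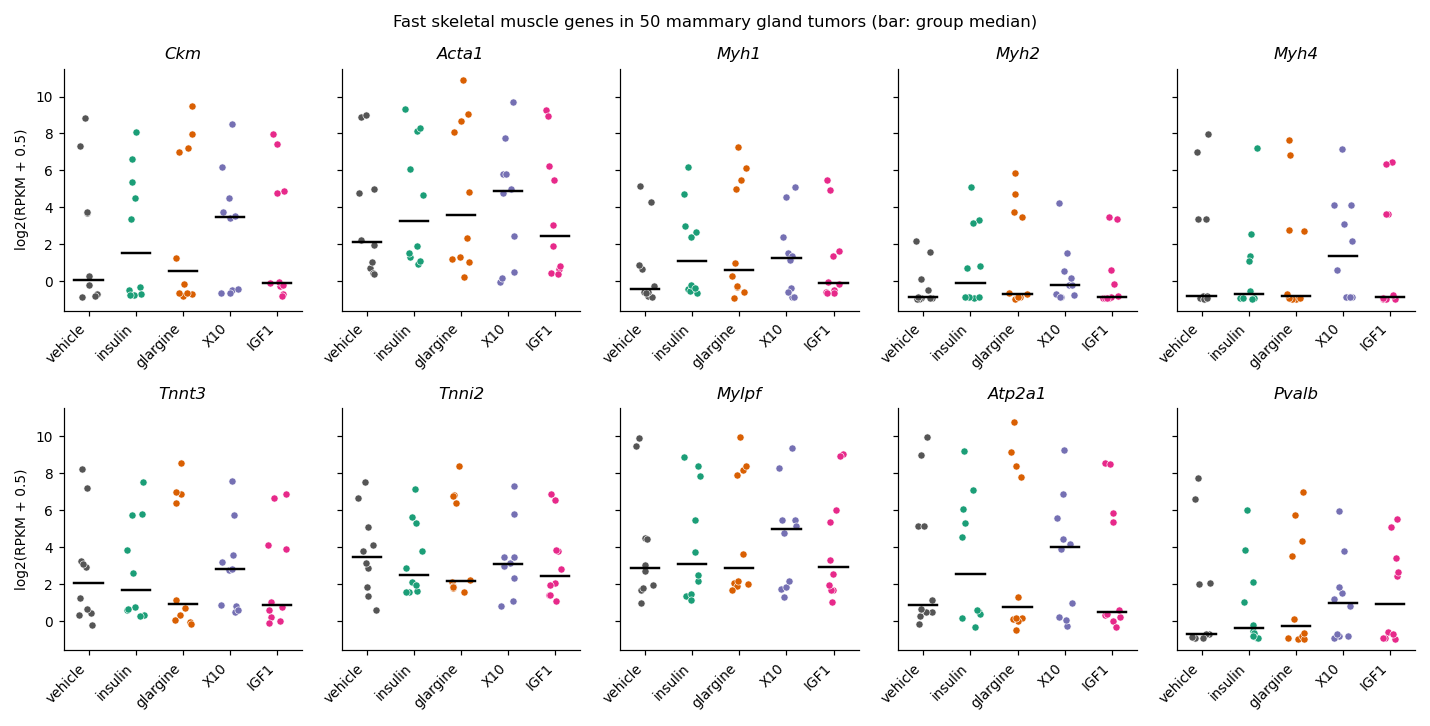
Level of each of the 10 genes, as log2(RPKM + 0.5), in the 50 tumors by treatment group; each point is 1 tumor and the black bar is the median of its group (n = 10). The groups overlap in every panel, although for Myh2 the highest vehicle tumor is at 4.00 RPKM and the highest glargine tumor at 58.1 RPKM, and for Ckm the medians run from 0.442 RPKM (IGF1) to 10.6 RPKM (X10).

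On the log2(RPKM + 0.5) scale the values of Ckm left their widest gap between 1.91 RPKM (glargine_73) and 9.65 RPKM (insulin_37), with 23 tumors above and 27 below. No test is made between its sides, since they were set by a measured level; correlations are given within each side. By their own widest gap, Atp2a1 was the only other gene that parted 23 tumors from 27. Acta1 parted 24 from 26, and the other 7 genes set apart fewer tumors, from 8 (Myh4) to 14 (Tnni2), so that the division holds for Ckm and is not shared by all members. Above it were 4 vehicle tumors (Untreated_186, Untreated_187, Untreated_194 and Untreated_197), 5 insulin tumors (insulin_9, insulin_13, insulin_15, insulin_18 and insulin_37), 4 glargine tumors (glargine_47, glargine_53, glargine_64 and glargine_78), 6 X10 tumors (X10_95, X10_100, X10_105, X10_107, X10_118 and X10_120) and 4 IGF1 tumors (IGF1_128, IGF1_135, IGF1_143 and IGF1_145). Every treatment therefore had tumors of both kinds, between 4 and 6 of 10.

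For 4 of the other 9 genes the same division left no overlap, which was so for 22 of the 16733 genes (0.131%), all with higher values in the 23 tumors. Because the division was made on Ckm and the 10 genes vary together, nothing is read from this count. Atp2a1 lay at 14.2 to 1771 RPKM in the 23 tumors and at 0.206 to 2.01 RPKM in the 27, and Mylpf at 12.8 to 1009 against 1.45 to 11.8 RPKM. Myh4 (at least 0.196 against at most 0.116 RPKM) and Myh2 (at least 0.211 against at most 0.138 RPKM) were separate as well. For Mylpf, Myh4 and Myh2 the 2 ranges nearly met. The 23 tumors were not uniform: Ckm spanned 9.65 to 728 RPKM among them, with Untreated_187 at 12.6, X10_118 at 22.3 and IGF1_145 at 173.8 RPKM, so that the high kind is a broad range.

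The remaining 5 genes had 1 to 4 tumors out of place. Tnni2 was at 33.3 RPKM in Untreated_174 (1117 reads), where Ckm was at 0.049 RPKM, and at 17.0 RPKM in Untreated_195, 13.2 RPKM in Untreated_161 and 7.28 RPKM in X10_111, all below the gap in Ckm. The other genes stayed low in Untreated_174, with 0.052 RPKM of Myh1 and 0.881 RPKM of Atp2a1. Untreated_195 also had 7.91 RPKM of Tnnt3, the neighbor and partner of Tnni2. Acta1 was at 27.9 RPKM in glargine_62 (1763 reads) beside 0.078 RPKM of Ckm, and Pvalb at 10.4 RPKM in IGF1_158 (421 reads) beside 0.417 RPKM of Ckm. In Untreated_174, glargine_62 and IGF1_158 only 1 of the 10 genes was thus above the lowest of the 23 tumors. Some other muscle genes were above it too: Des was at 42.1 RPKM in IGF1_158 (lowest of the 23 tumors 14.1), and Actn3 at 1.68 RPKM there (0.673) and Mb at 4.25 RPKM in Untreated_174 (1.15) were named after their values were seen. Markers of other cells were high in the same tumors. Of 10 contractile genes of smooth muscle and myoepithelium, 7 had their highest value in IGF1_158, with 656 RPKM of Acta2, and Tagln had its highest in glargine_62 (213 RPKM). Of 10 mammary epithelium genes, 9 were highest in Untreated_174, with 1616 RPKM of Krt8, and all 5 red blood cell genes were highest in Untreated_195. The part of these cells in the values was not tested.

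**Figure D2:**
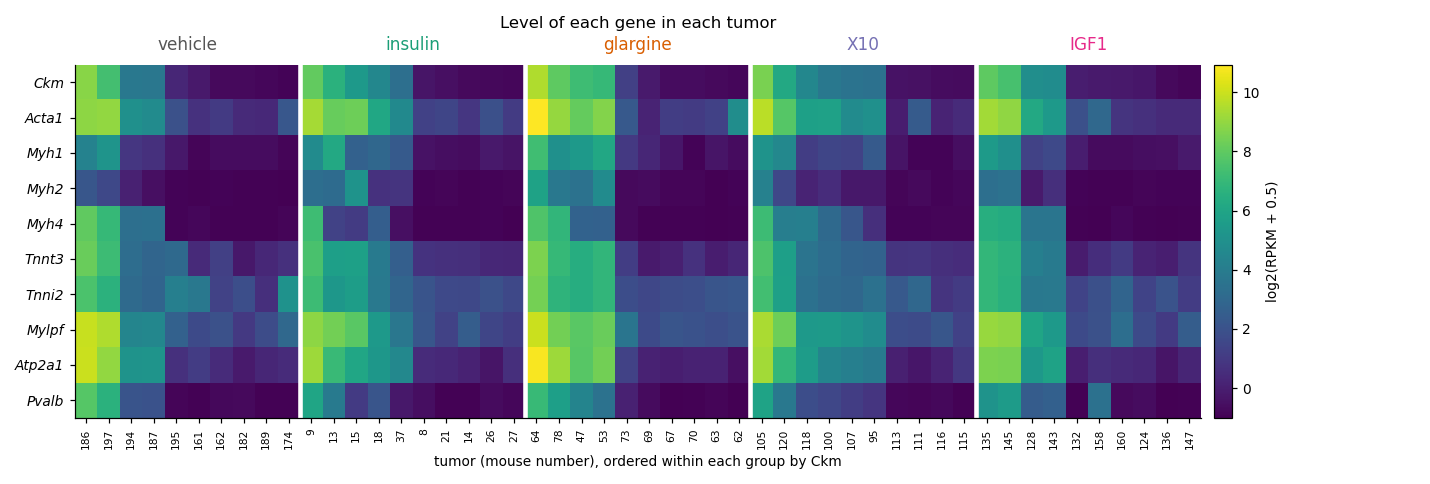
Level of each gene (rows) in each tumor (columns, mouse number) as log2(RPKM + 0.5), with tumors ordered by Ckm within each treatment group. Bright columns are bright in nearly all rows. Brighter cells among the dark columns include Acta1 in glargine_62, Pvalb in IGF1_158, Mylpf in glargine_73, and Tnni2 in Untreated_174, Untreated_195 and Untreated_161.

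No difference between treatments was called for these genes. In limma over 16733 genes, 0 of the 10 genes passed an adjusted p of 0.05 in any comparison of a compound with vehicle, in the X10 and IGF1 groups combined against the remaining 30 tumors, or in the test for any difference among the 5 groups, and 0 had an unadjusted p under 0.05 (also with voom on the recovered reads). The background was as sparse: 0% of all genes were called with insulin, 0% with glargine, 0.0657% with X10, 0.00598% with IGF1, 0.155% for X10 and IGF1 together and 0.102% in the test over 5 groups. At an unadjusted p under 0.05 there were 1865, 1043, 1841, 1479, 1764 and 2184 genes in that order. A count of 0 in 10 genes is thus the share that the background gives, and it does not show that the compounds leave muscle genes alone.

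The intervals of these comparisons were wide. For Ckm the log2 fold change against vehicle was 0.43 with insulin (95% interval -2.75 to 3.61, adjusted p = 0.949, limma), which spans 0.148-fold to 12.2-fold. It was 0.95 with glargine (-2.23 to 4.13), 0.71 with X10 (-2.47 to 3.89) and 0.23 with IGF1 (-2.95 to 3.41), on the log2(RPKM + 0.5) scale with standard errors of 1.58. Changes of several fold in either direction are inside every one of these intervals. For X10 and IGF1 together Ckm differed by 0.01 (-2.04 to 2.07).

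Of the 10 genes, Myh2, the IIa myosin, had the narrowest interval and the smallest adjusted p in all comparisons but IGF1 against vehicle. The log2 fold change of Myh2 was 1.09 with insulin (standard error 0.86, adjusted p = 0.663, limma) and 1.51 with glargine (adjusted p = 0.811). Myh1 had 0.96 and 1.57 in the same comparisons, whereas Myh4 had -0.94 and -0.19, and none of these passed. With IGF1 the smallest adjusted p was that of Tnni2 (0.951, log2 fold change -0.52). The median log2 fold change of the 10 genes was 0.19 with insulin, 0.63 with glargine, 0.40 with X10, 0.14 with IGF1 and -0.21 for X10 and IGF1 together, beside medians of 0.03, 0.02, -0.03, 0.02 and -0.02 over all genes. The 4 comparisons with vehicle share the same 10 vehicle tumors, and the 10 genes follow each other, so these medians count as few observations. The summed level of 9 adipocyte genes was 45.3 to 590.0 RPKM (median 215.2) in glargine tumors and 28.3 to 278.5 RPKM (median 69.3) in vehicle tumors, and its part in the glargine values was not tested.

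**Figure D3:**
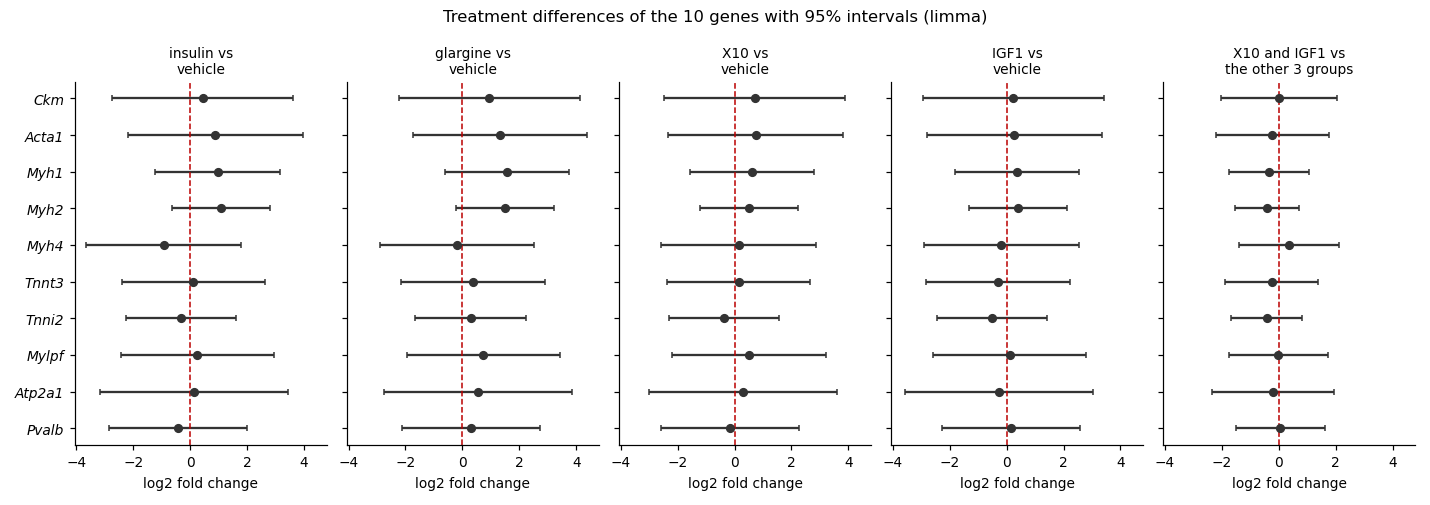
Log2 fold change of each gene in 5 comparisons, from limma on log2(RPKM + 0.5) with all 50 tumors; points are estimates, bars are 95% intervals, and the dashed line is 0. Every bar crosses 0, and for Ckm with glargine it reaches from -2.23 to 4.13.

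Few genes of the table varied as much from tumor to tumor. By standard deviation of log2(RPKM + 0.5) over the 50 tumors, Atp2a1 ranked 1 of 16733 (3.66), Ckm 3 (3.53), Acta1 5 (3.42), Myh4 8 (3.02) and Mylpf 9 (2.99), and 7 of the 10 genes were in the top 20. Myh2, with most of its values under the 0.5 added before the logarithm, had the lowest (1.98), and the median of the 10 was 2.89 against 0.419 over all genes. The treatment group accounted for 0.543% (Atp2a1) to 7.39% (Myh2) of this variance, with a median of 1.24%, beside a median of 9.29% over all genes. The variation thus lay within treatment groups.

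The 10 genes varied together over tumors. The 45 pairs had a median Pearson correlation of 0.929 over 50 tumors, from 0.770 (Myh2 and Myh4) to 0.994 (Ckm and Atp2a1). The points share their library and its scaling, and they span the gap in Ckm, so that these values are descriptive. Within the 23 tumors above the gap the median was 0.890, and Tnnt3 and Tnni2 were the closest pair there (0.992), while Myh2 and Myh4 were again the farthest (0.400). Within the 27 tumors below it the median was 0.243 (from -0.20 to 0.67), where the lowest values of Ckm, Myh2, Myh4 and Pvalb rest on 3, 2, 1 and 0 reads.

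The myosin heavy chains varied more than the other members among the high tumors. Log2 ratios to Ckm were taken between values of RPKM + 0.5. Relative to Ckm, the log2 ratio of Myh4 had a standard deviation of 1.51 over the 23 tumors, that of Myh2 1.23 and that of Myh1 1.012, against 0.78 for Pvalb, 0.59 for Mylpf, 0.51 for Acta1, 0.42 for Tnni2, 0.36 for Atp2a1 and 0.34 for Tnnt3. Of the summed RPKM of Myh4, Myh1, Myh2 and the slow myosin gene Myh7, Myh4 made up the largest share in 15 tumors, Myh1 in 7 and Myh2 in 1.

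In the 4 high vehicle tumors Myh4 held 76.8% (Untreated_197), 82.9% (Untreated_194), 88.3% (Untreated_187) and 91.8% (Untreated_186) of the 4 myosins. IGF1 tumors lay at 61.8% to 82.7%, and X10 tumors at 87.5% (X10_118), 72.9% (X10_105), 70.5% (X10_100), 62.5% (X10_107), 39.5% (X10_120) and 16.2% (X10_95). In glargine tumors Myh4 held 70.7% (glargine_78), 37.4% (glargine_64), 9.96% (glargine_47) and 5.81% (glargine_53), and in insulin tumors 80.5% (insulin_9), 38.8% (insulin_18), 3.12% (insulin_15), 2.93% (insulin_37) and 2.49% (insulin_13). The high vehicle and IGF1 tumors were all led by Myh4, and the other 3 groups held tumors led by Myh1 as well as by Myh4.

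In insulin_13 Myh1 held 87.4%, and insulin_15 was the tumor led by Myh2 (66.0%), with 19.4% Myh7. Tumor insulin_15 also had the highest Acta1 relative to Ckm (log2 ratio 2.91) and the lowest Pvalb relative to Ckm (-4.36). No test was made on the shares, because the tumors were picked by a measured level. With Ckm as a covariate over all 50 tumors, a fit added after the values had been seen, Myh4 had a log2 fold change of -1.28 with insulin (standard error 0.44, adjusted p = 0.300 in limma, against 0.823 to 0.923 under the settings without Ckm) and -0.95 with glargine (adjusted p = 0.796). Myh1 and Myh2 had 0.95 and 1.04 with glargine (adjusted p = 0.792 for each), so that 0 of the other 9 genes passed in any comparison in this fit. An unadjusted p under 0.05 was found for 4 of 9 in the test over 5 groups (13.3% of all genes in the same fit), 4 with glargine (6.11%), 3 with insulin (11.5%), 1 with X10 (11.2%), 1 with IGF1 (8.98%) and 0 for X10 and IGF1 together (10.8%). Beside the 3 myosins, Atp2a1 was among the 4 over 5 groups and the 4 with glargine. It was also the 1 with X10 and the 1 with IGF1. Its log2 fold changes were -0.45 with glargine, -0.43 with X10, -0.49 with IGF1 and -0.31 with insulin.

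**Figure D4:**
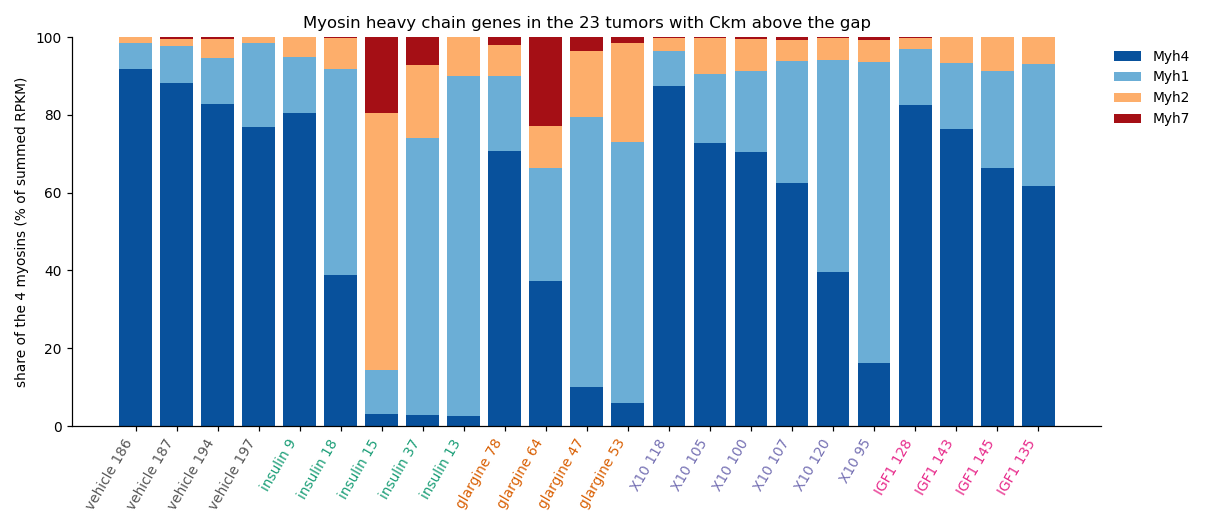
Share of Myh4, Myh1, Myh2 and Myh7 in their summed RPKM (%) in the 23 tumors with Ckm above the gap, grouped by treatment and ordered by the Myh4 share; each bar is 1 tumor. Myh4 holds 76.8% or more in the 4 vehicle bars and 2.49% in insulin_13.

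Slow fibre genes followed the fast ones less closely, and 9 of the 10 were highest in glargine_64. In that tumor Myl2, the slow light chain, reached 363 RPKM, Tnnt1 319 RPKM, Tnni1 184 RPKM and Myh7 120.5 RPKM. Elsewhere Myh7 was at or under 10.1 RPKM, the value of insulin_15, and its share of the 4 myosins in glargine_64 was 22.7%. In the 23 tumors Tnnt1, Tnni1 and Myl2 never exceeded Tnnt3, Tnni2 and Mylpf by RPKM, while Myh7 exceeded Myh4 in 2 (insulin_15 and insulin_37) and Atp2a2 exceeded Atp2a1 in 11. These counts depend on the gene lengths used, which were 19.6% of the merged exons for Atp2a1 and 70.9% for Atp2a2. Atp2a2, the calcium pump of slow fibres and of most other cells, lay at 27.9 to 119.6 RPKM in all tumors and had a correlation of 0.02 with the mean z-score of the 10 genes (the mean of their standardized log2 values). Over the 10 slow fibre genes the median correlation was 0.52, with Tpm3, a tropomyosin of many cells, at -0.00118.

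The genes most like the 10 were other genes of the fibre. By correlation with the mean z-score over 50 tumors, the first 10 of the 16723 other genes were Eef1a2 (0.988), Tnnc2 (0.987), Myl1 (0.986), Tcap (0.982), Myom2 (0.980), Mybpc2 (0.979), Pygm (0.974), Mybpc1 (0.973), Pgam2 (0.970) and Myot (0.970). Tnnc2 and Myl1 encode the fast troponin C and a fast myosin light chain, Tcap, Myom2, Mybpc1, Mybpc2 and Myot proteins of the sarcomere, Pygm and Pgam2 the muscle glycogen phosphorylase and phosphoglycerate mutase, and Eef1a2 the elongation factor of muscle and neurons. Within the 23 high tumors their correlations were 0.920 (Mybpc1) to 0.988 (Tnnc2), and within the 27 low tumors 0.185 (Myom2) to 0.528 (Mybpc2). A value of at least 0.95 was reached by 22 genes, 0.132% of all, and of at least 0.5 by 171 genes.

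Of the 35 other sarcomere and muscle metabolism genes, 32 had a correlation of at least 0.8, with a median of 0.947. The 3 that did not were Tpm1 (0.17) and Tpm2 (0.61), tropomyosins also made outside skeletal muscle, and Cav3 (0.54), which was highest in a low tumor, glargine_69 (6.76 RPKM); Cav3 was named after its value was seen. Tpm1 stayed between 127 and 1267 RPKM in all tumors. Des, the intermediate filament of muscle, was at 14.1 to 620.04 RPKM in the high tumors and 1.47 to 42.1 RPKM in the low ones. The glycolytic and glycogen enzymes of muscle were mixed, with 3 of 12 at or over 0.8 and a median of 0.408: Aldoa, an aldolase used by most cells, was at 403 to 1966 RPKM in all tumors (0.23), while Eno3 had 0.55.

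Among 9 genes of developing muscle, only the following 4 had a mean RPKM that entered the tests: Myh8, the perinatal myosin (correlation 0.93, at most 7.47 RPKM), Myl4 (0.69, at most 13.3 RPKM), Chrna1 (0.55) and Ncam1 (-0.07). Among myogenic regulators that entered the tests, Mef2c, Six4 and Eya1 had correlations of 0.36, 0.05 and -0.0072. The myogenic factors themselves were scarce: Myod1 reached 1.095 RPKM and Myf5 0.125 RPKM, and Myf6, which mature fibres keep, 4.46 RPKM in glargine_64 (these 3 were named after their values were seen). Myog, the myogenin gene, did not pass, reached 1.79 RPKM at most (insulin_15) and was listed at 0 in 13 tumors. Chrna1, an acetylcholine receptor subunit of muscle, was highest in Untreated_197 (6.43 RPKM).

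Among lists of other tissues, the median correlation over 50 tumors was 0.185 over 8 adipocyte genes (Fabp4, Lpl, Adipoq and Lipe at 0.12 to 0.26), 0.217 over 6 fibroblast genes, 0.196 over 6 endothelial genes, 0.0874 over 9 smooth muscle and myoepithelial genes (among them Des, at 0.94) and 0.0836 over 3 heart muscle genes. It was 0.128 over 4 brown adipocyte genes (0.754 for Cox8b, a cytochrome oxidase subunit also found in muscle), 0.0975 over 4 epidermal genes, 0.0183 over 7 Schwann cell genes, -0.00792 over 5 red blood cell genes and -0.0391 over 10 mammary epithelium genes. Within the 23 high tumors the medians were higher for some of them: 0.592 for the adipocyte genes (0.455 to 0.669), 0.417 for the smooth muscle and myoepithelial genes, 0.404 for the brown adipocyte genes and 0.391 for the endothelial genes, beside 0.944 for the other sarcomere genes. The remaining lists of other tissues were at 0.0439 (Schwann cell) to 0.286 (heart). Within the 27 low tumors the median of the other sarcomere genes was 0.226, below those of the smooth muscle and myoepithelial genes (0.350) and the red blood cell genes (0.312), and the adipocyte median was -0.19. Among heart genes, Nppa was at most 0.127 RPKM (named after its value was seen), Tnni3 at most 7.38 RPKM, and Myh6 passed 1.42 RPKM only among the high tumors, with 282 RPKM in glargine_64. The RPKM of Myh6 was made on 465 bases, 6.91% of its merged exons. Its value in glargine_64 stood for 6105 reads, beside 27808 reads of Myh7 there, so that these 2 levels cannot be compared by RPKM. Tnnt2, the heart troponin T, was highest in Untreated_174 (77.2 RPKM), where Ckm was lowest. Of the genes in the 16 lists 0 passed in any of the 6 comparisons, and the share at an unadjusted p under 0.05 was 6.62% with insulin, 9.56% with glargine, 1.47% with X10, 11.8% with IGF1, 6.62% for X10 and IGF1 together and 12.5% over 5 groups, beside 11.1%, 6.23%, 11.0%, 8.84%, 10.5% and 13.1% of all genes.

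**Figure D5:**
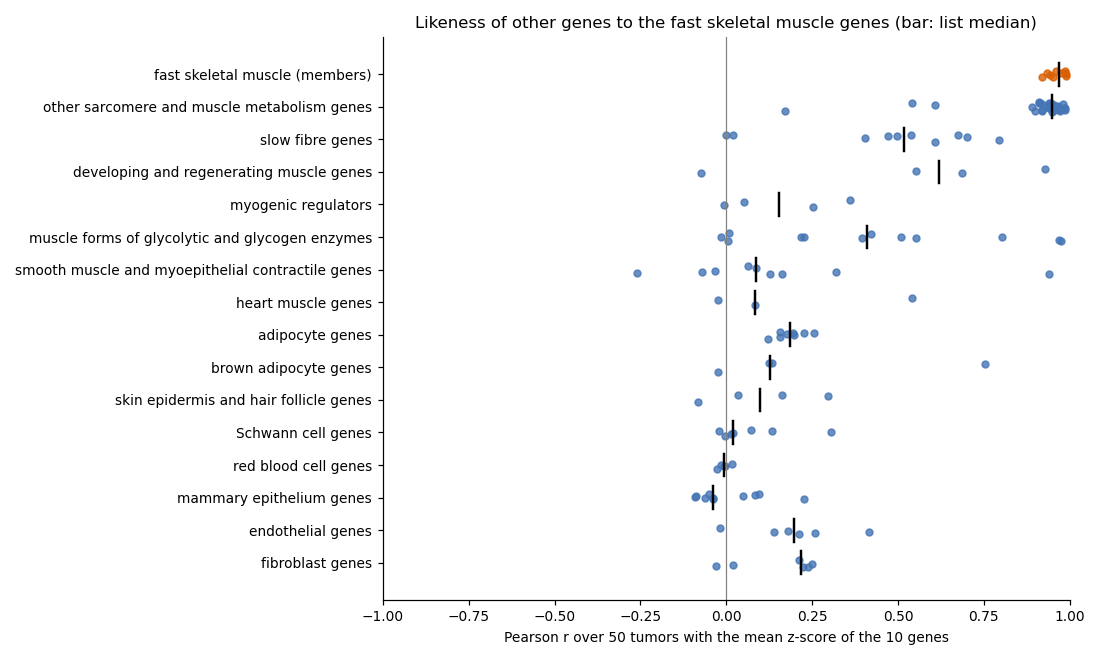
Pearson correlation over 50 tumors between each listed gene and the mean z-score of the 10 fast muscle genes (x axis, no unit), by list (y axis); points are the genes that entered the tests and black bars are list medians. The 10 genes, which make up the score themselves, and 32 of 35 other sarcomere genes lie over 0.8, and the lists of other tissues center between -0.04 and 0.22.

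Ckm was set against 9 genes of other cells or states, the myogenic factor gene Myog and library size, within the 23 high and the 27 low tumors, which made 22 relations. Both sets of tumors were picked by the level of Ckm itself, so that these p-values hold for such tumors only. Among the high tumors 2 passed after adjustment over the 22. Adipoq, the adiponectin gene of fat cells, varied with Ckm, with Pearson's r of 0.672 (adjusted p = 0.0152) and Spearman's rho of 0.663 (adjusted p = 0.0099, two-sided permutation test with 100000 resamples). Its r was 0.593 without the 2 tumors farthest from the median of Ckm and 0.572 after centring within treatment groups. Myog had r = 0.623 (adjusted p = 0.025) and rho = 0.677 (adjusted p = 0.0099, permutation test), with 0.550 without the same 2 tumors and 0.623 within groups, although its levels of at most 1.79 RPKM rest on few reads. In the low tumors 0 of the 11 relations passed, with r = -0.07 for Adipoq.

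Acta2 and Pecam1, of smooth muscle or myoepithelium and of endothelium, had r = 0.432 and 0.450 among the high tumors (adjusted p = 0.180 for each, permutation test), which did not pass. After centring within treatment groups r was 0.592 for Acta2, 0.474 for Pecam1, 0.392 for Ptprc and -0.46 for Vim, beside the 0.572 of Adipoq, and the centred values were not tested. Krt14 (r = -0.02), Cdh1 (0.15), Vim (-0.23), Ptprc (0.23) and Mki67 (0.11) did not pass either. For library size r was 0.00583 in the high tumors and 0.10 in the low ones, with adjusted p = 0.979 and 0.906 (permutation test). Over the 23 high tumors the summed level of the 9 adipocyte genes ran from 37.8 to 453 RPKM, and over the 27 low ones from 28.3 to 590.0 RPKM. The part of fat cells in the values of Ckm was not tested. The sequence sample IDs in the labels run in order of treatment, and no sequencing run or date is given in the sources used here.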

How the data were processed

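RNA from 50 tumors was poly-A selected and sequenced on an Ion Proton. Per the labels and the methods of the study, the authors aligned reads to GRCm38 with TopHat2 (2.0.10) and Bowtie2, counted them with HTSeq (0.6.1, default options) and made the deposited RPKM table, scaled to library size and gene length, with DEXSeq (1.8.0). Their DESeq2 (1.2.10) test was not repeated. The deposited values are multiples of what 1 read is worth, and at least 96.0% of low values per tumor came out as whole reads, which gave library sizes and read counts. Tumors were grouped by title.

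The 16733 genes whose mean RPKM was 0.5 or more were tested as log2(RPKM + 0.5) with limma (3.58.1, R 4.3.3, intensity trend, 5 groups in 1 fit) and Benjamini-Hochberg adjustment over all of them; a fold change on this scale understates that of low genes. Fits were tested on simulated data. Alternatives were another pseudocount, filter, scaling or trend, ranks, fewer groups and voom on recovered reads. Members and lists were chosen with earlier results of these data known. Named genes were the 10 members, the 10 most alike, the 4 most abundant of each list, slow paralogs and partners of Ckm; others are said to be named later. Nothing says that libraries were repeated, and each tumor came from 1 mouse, so p-values measure the spread between mice. Correlations and promoter searches used Python 3.11.15, numpy 2.4.6 and scipy 1.17.1. Some genes of these lists are not reported here.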

Additional observations from a re-analysis of the deposited data

Results flagged for a closer look

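Of 50 gene and group combinations (10 genes in 5 groups of 10 tumors), 2 had 1 tumor far from the others by Dixon's gap over range on the log2(RPKM + 0.5) scale; chance marks about 1 in 20. Myh2 was at 18.2 RPKM in X10_105 and at 2.41 RPKM in the next X10 tumor, a gap of 0.527 of the range. Myh4 was at 146.6 RPKM in insulin_9 and at 5.35 RPKM in the next insulin tumor, a gap of 0.569 of the range. Both tumors had the highest Ckm of their group, with 362 and 270.2 RPKM, and X10_105 also had the highest Krt14 (2587 RPKM) and Adipoq (49.9 RPKM) of all tumors.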

How the results depend on the processing

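The count of members called was 0 in all 6 comparisons and under every alternative, with adjusted p-values of at least 0.511 among those chosen beforehand and 0.294 with Ckm as a covariate. Keeping genes at a mean RPKM of 5 or more left Myh2 out. Of 495 alternative fold changes of single members, 476 kept their sign and 19 turned it, all of them uncalled. With normal scores of ranks, the values were -0.018 (Tnnt3), -0.19 (Atp2a1) and -0.029 (Pvalb) for glargine, -0.026 (Mylpf) and -0.049 (Pvalb) for IGF1, -0.056 (Mylpf), -0.13 (Atp2a1) and 0.089 (Pvalb) for insulin, -0.11 (Atp2a1) and 0.10 (Pvalb) for X10, and 0.068 (Myh2) and 0.015 (Tnnt3) for X10 and IGF1 together. With voom they were -0.029 (Atp2a1, insulin), 0.57 (Pvalb, X10) and 0.058 (Mylpf, X10 and IGF1). A pseudocount of 1 gave -0.045 (Ckm) and -0.023 (Pvalb) for X10 and IGF1, quantile normalization 0.026 (Mylpf) for the same, and a pseudocount of 0.1 gave 0.18 (Pvalb, X10). The cause was not tested. Over all genes, the calls for X10 and IGF1 together were 26, and 11 with all genes that had a nonzero value, 16 with voom, 17 at a mean RPKM of 5 or more, 13 with those 2 sides as the only groups, 0 with ranks and 51 with upper quartile scaling. Higher calls were 2 of 26, 10 of 51 with upper quartile scaling and 10 of 20 with quantile normalization. The calls for X10 were 11, and 24 with all nonzero genes, 4 with only the groups compared and 0 with ranks, and those over 5 groups were 17, and 5 with voom, 6 with quantile normalization and 0 with ranks or all nonzero genes. For IGF1 the 1 call was lost at a mean RPKM of 5 or more, with ranks and with only the groups compared, and for insulin 2 genes were called in place of 0 at a mean RPKM of 5 or more, with quantile normalization and with upper quartile scaling. The median pair correlation was 0.838 with Spearman's measure and 0.243 in the 27 tumors below the gap, against 0.929. No paired analysis was possible because mouse numbers are not shared between groups.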
